A study of Mus musculus with 24 samples.

Results

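Wnt2, Wnt5a and Wnt4, 3 genes of the Wnt family of secreted signalling proteins, were followed in cells sorted from mouse embryoid bodies, the aggregates that embryonic stem cells form as they differentiate. They were read from the array probes whose platform annotation names 1 of these genes and no other, which gave 4 of 20280 probes and 3 of 8973 named genes. Wnt2 was measured by probe 15615, Wnt5a by probe 19582 and Wnt4 by probes 1184 and 9607. The cells were Flk1+, with the VEGF receptor encoded by Kdr on their surface, or Flk1-, without it, and were collected at 84 h, 95 h and 8 d of differentiation. Each of these 6 groups had 4 two-colour Agilent mouse development arrays, 24 in all. Per the labels, RNA of the sorted cells was isolated with RNeasy and carried Cy5, and the reference on every array was RNA of homogenised whole pups, isolated with guanidinium and carrying Cy3. The labels used here give no cell line, strain, genotype, added agent or gate for the sort, and they number the samples of a group 1 to 4 without saying whether they are separate cultures. What a p-value measures here is thus spread among the samples as labelled, part or all of which may be technical. The title of the series asks after Wnt signals in endothelial commitment, and the comparisons below give the levels of 3 such signals in Flk1-sorted cells.

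Wnt proteins are lipidated by Porcn, carried to the cell surface by Wls and bound by Frizzled receptors on receiving cells. Together with the coreceptors Lrp5 and Lrp6 they stabilise beta-catenin, which then acts with Tcf and Lef proteins on target genes. Through Ror and Ryk receptors some of them act on cell polarity and movement without beta-catenin. In the mouse embryo Wnt2 is known from lateral and cardiac mesoderm, the allantois and the vessels of the placenta. Wnt5a is known for the outgrowth of the tail bud and limbs and for signalling through Ror2. Wnt4 is known for the formation of kidney tubules and of the female reproductive tract.

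The sequences before the starts of Wnt2 and Wnt4 are shown because these genes were the most and the least variable of the 3 ligands on the arrays. They come from the RefSeq promoter table of build GRCm38.p6, which held 2 of the 3 genes. Both stretches are the 250 bases before the annotated start, 5′ to 3′ on the strand of the gene. Wnt2 lies at chr6:18030446-18030695 on the minus strand, and its capitals mark matches to GATAA on either strand. Wnt4 lies at chr4:137277385-137277634 on the plus strand, and its capitals mark matches to GGGCGG on either strand.
Wnt2: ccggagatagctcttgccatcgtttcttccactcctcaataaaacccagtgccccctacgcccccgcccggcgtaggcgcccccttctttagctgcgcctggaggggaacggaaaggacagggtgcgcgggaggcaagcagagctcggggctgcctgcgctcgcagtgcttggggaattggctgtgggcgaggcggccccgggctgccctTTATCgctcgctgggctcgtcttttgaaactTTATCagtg
Wnt4: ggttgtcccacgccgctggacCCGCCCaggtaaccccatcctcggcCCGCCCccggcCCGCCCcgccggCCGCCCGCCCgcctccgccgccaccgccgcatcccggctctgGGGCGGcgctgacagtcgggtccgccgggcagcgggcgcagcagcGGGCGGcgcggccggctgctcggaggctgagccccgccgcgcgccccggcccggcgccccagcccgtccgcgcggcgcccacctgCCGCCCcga
In all, 4 motifs were searched on both strands in the same 250-base window of all 32851 starts of the table. The GATA motif GATAA occurred at 2 places before Wnt2, 40 and 9 bases before the start, and at none before Wnt4, while 22.6% of all windows held at least 1 and 4.28% held 2 or more. The GC box GGGCGG occurred once before Wnt2 and at 8 places before Wnt4, of which 2 overlapped each other, while 32.7% of all windows held at least 1. The Tcf/Lef motif CTTTGA, in 13.8% of all windows, and the TATA motif TATAA, in 22.8%, matched in neither window. Bases G and C made up 63.6% of the Wnt2 window and 85.2% of the Wnt4 window, and 99.9% of all windows had a lower share than Wnt4. These matches describe letters only, and no binding was measured.

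Values are ratios of sample over reference on a logarithmic scale, read as log2 with the median of each array at 0, so that 0 means that a gene stood in the same proportion to the pup reference as the median probe did. The log base and the direction are not stated in the sources used here. With another base every difference would change by 1 common factor, and the fold changes would differ. Kdr encodes the sorted receptor and stood higher in Flk1+ cells at each time, by 1.91 at 84 h, 2.93 at 95 h and 1.89 at 8 d. The direction was chosen from this, so Kdr is not a separate check of it. Correlations between arrays of a group over all features ran from 0.59 to 0.97 at 84 h, from 0.67 to 0.90 at 95 h and from 0.92 to 0.96 at 8 d. At 84 h Flk1+ arrays 2 and 4 and Flk1- array 4 stood apart from the others. For Kdr these Flk1+ arrays read 0.04 and 0.67, against 1.80 and 1.43 on the other two. The sort differences of the ligands at 84 h are therefore also given without these 3 arrays.

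Of the 3 ligands Wnt2 had the largest difference between sorts at each time and the largest steps from 95 h to 8 d. At 84 h its log2 ratio was 1.03, 1.08, 1.07 and 1.50 on the 4 Flk1+ arrays, against -1.63, -1.31, -1.62 and -1.39 on the 4 Flk1- arrays. Wnt2 lay above the array median on all Flk1+ arrays and below it on all Flk1- arrays, with no overlap. The difference was 2.66 (SE 0.23, 95% interval 2.17 to 3.14, limma adjusted p = 1.61e-07), which is 6.32-fold if the values are base 2. Only 1 other named gene and 1 unnamed probe had a larger positive difference among the 17440 genes and unnamed probes tested. Calls required an adjusted p below 0.05 and no minimum fold. At 84 h 13.5% of all features were called, 5.3% as higher and 8.18% as lower, and the arrays of 17.4% did not overlap. Leaving out the 3 arrays named above gave 2.57 (adjusted p = 2.99e-05).

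At 95 h the same order held. Wnt2 read 0.91, 0.84, 0.99 and 0.86 on the Flk1+ arrays, against -1.33, -1.07, -0.86 and -0.58 on the Flk1- arrays. The Flk1+ values lay close together around their mean of 0.90 (SD 0.06), whereas the Flk1- values spread more widely around -0.96 (SD 0.32). The difference of 1.86 (SE 0.23, limma adjusted p = 4.15e-05) was exceeded by 3 named genes, and 2.03% of all features were called at this time, 0.659% as higher and 1.37% as lower. As for 4.81% of all features, the arrays did not overlap. With arrays weighted by their agreement it was 1.64 and no longer passed (adjusted p = 0.0796).

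By 8 d both sorts had reached their highest Wnt2 ratios. The Flk1+ arrays read 3.67, 2.45, 3.59 and 3.13, and the Flk1- arrays read 2.67, 1.52, 2.11 and 1.85. The groups overlapped at 1 point, since Flk1+ array 2 lay below Flk1- array 1, but the Flk1+ array was higher in each of the 4 pairs with the same number, by 1.00, 0.92, 1.48 and 1.28. The difference was 1.17 (SE 0.23, 95% interval 0.69 to 1.66, limma adjusted p = 0.0221), at a time when only 0.373% of all features were called. It passed more firmly with the array number as a block (adjusted p = 0.00189). It did not pass from the 8 d arrays alone (adjusted p = 0.0654), nor without Flk1+ array 1, 3 or 4 or Flk1- array 2, 3 or 4 (differences of 1.00 to 1.20, adjusted p of 0.0618 to 0.112).

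**Figure D1:**
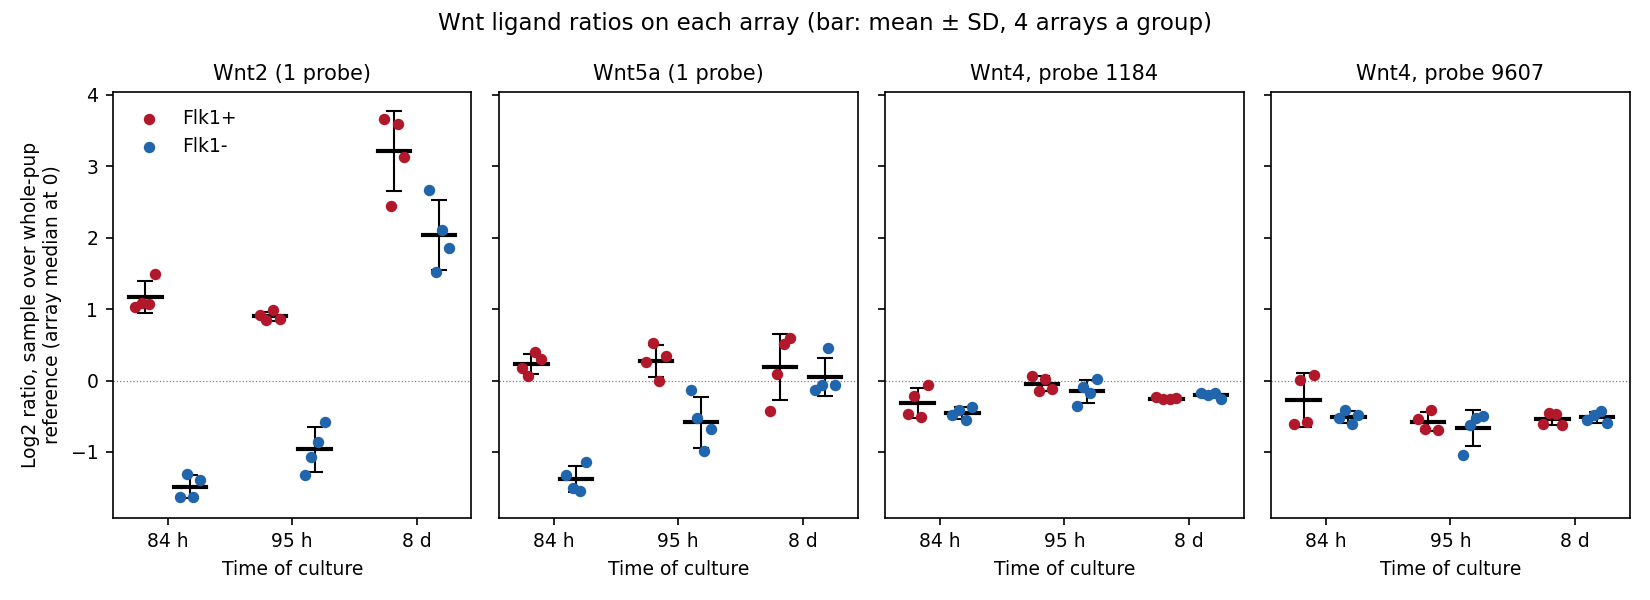
Log2 ratio of sample over whole-pup reference, with each array's median at 0, for Wnt2, Wnt5a and the 2 probes of Wnt4. Points are arrays, bars are the mean and SD of 4 arrays, and Flk1+ stands left of Flk1- at each time. Wnt2 spans -1.63 to 3.67 and Wnt5a -1.54 to 0.59, while the highest Wnt4 reading is 0.09.

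Over time Wnt2 rose in both sorts, and nearly all of the change came after 95 h. In Flk1+ cells it averaged 1.17 ± 0.22 at 84 h, 0.90 ± 0.06 at 95 h and 3.21 ± 0.56 at 8 d (SD, n = 4 each). The step to 95 h was -0.27 and did not pass (adjusted p = 0.42, with 19.8% of all features called), although the arrays of both times did not overlap, as was so for 13.2% of all features. The step from 95 h to 8 d was 2.31 (limma adjusted p = 2.1e-07), in a comparison where 22.1% of all features were called. In Flk1- cells the means were -1.49 ± 0.16 at 84 h, -0.96 ± 0.32 at 95 h and 2.04 ± 0.48 at 8 d. The early step of 0.53 did not pass (adjusted p = 0.294), and the late step was 3.00 (adjusted p = 5.83e-09), with 17.7% of all features called. A larger rise in Flk1- cells between 95 h and 8 d was seen for 11 features, of which 10 were named genes.

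Wnt5a separated the sorts early and did not separate them at 8 d. At 84 h it read 0.18, 0.07, 0.40 and 0.30 on the Flk1+ arrays, against -1.33, -1.50, -1.54 and -1.15 on the Flk1- arrays. Wnt5a lay close to the array median on every Flk1+ array and more than 1 unit below it on every Flk1- array. The difference of 1.62 (SE 0.20, limma adjusted p = 1.53e-05) was exceeded by 14 named genes, and leaving out the 3 arrays named above gave 1.74 (adjusted p = 0.000381). At 95 h the Flk1+ arrays read 0.26, 0.53, -0.01 and 0.34, against -0.13, -0.52, -0.99 and -0.68 on the Flk1- arrays. The groups lay close together but did not overlap, and the difference was 0.86 (SE 0.20, adjusted p = 0.0213). This call depended on single arrays and on the fit. It passed with the array number as a block (limma adjusted p = 0.00719) and without the 3 arrays named above (adjusted p = 0.0198). It did not pass without Flk1+ array 2 or 4 or Flk1- array 3 or 4 (0.72 to 0.84, adjusted p of 0.0549 to 0.085), nor after quantile normalization (0.81, adjusted p = 0.0999), from the 95 h arrays alone (adjusted p = 0.119) or with array weights (0.94, adjusted p = 0.195).

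At 8 d Wnt5a read -0.42, 0.10, 0.51 and 0.59 on the Flk1+ arrays and -0.13, -0.06, 0.45 and -0.07 on the Flk1- arrays. The Flk1- values lay inside the range of the Flk1+ values, and the difference was 0.15 (95% interval -0.27 to 0.56, limma adjusted p = 1). An excess in Flk1+ cells of the size seen at 84 h or at 95 h lies outside this interval. Differences from -0.27 to 0.56 lie inside it.

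The course of Wnt5a over time differed between the sorts. In Flk1+ cells it averaged 0.24 ± 0.14 at 84 h, 0.28 ± 0.23 at 95 h and 0.20 ± 0.46 at 8 d (SD, n = 4 each), with steps of 0.04 (adjusted p = 0.896) and -0.08 (adjusted p = 0.814). In Flk1- cells it averaged -1.38 ± 0.18 at 84 h, -0.58 ± 0.36 at 95 h and 0.05 ± 0.27 at 8 d. The step of 0.80 to 95 h passed (limma adjusted p = 0.044, with 1.64% of all features called), as did the step of 0.63 to 8 d (adjusted p = 0.0313). Both were close to the threshold: the early step did not pass when 1 of 12 arrays was left out in turn (adjusted p up to 0.128), after quantile normalization (adjusted p = 0.0797), without centring (adjusted p = 0.0529) or from the arrays of both groups alone (adjusted p = 0.107). Those 12 arrays were all 4 Flk1- arrays of 84 h, Flk1- arrays 1, 2 and 4 of 95 h and, through the shared estimate of the spread, Flk1+ array 4 of 95 h, Flk1+ array 2 of 8 d and Flk1- arrays 1, 2 and 4 of 8 d. The late step did not pass without Flk1- array 3 of 8 d, without Flk1- array 3 or 4 of 95 h (0.49 to 0.60, adjusted p of 0.0707 to 0.12) or after quantile normalization (0.61, adjusted p = 0.0627). Across the whole interval, a comparison added after seeing the data, Flk1- cells gained 1.43 at 8 d over 84 h (adjusted p = 1.53e-05, with 16.5% of all features called), and Flk1+ cells differed by -0.04 (95% interval -0.46 to 0.37, adjusted p = 0.888, with 39.3% of all features called).

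Wnt4 changed little. Its 2 probes averaged between -0.48 and -0.29 in the 6 groups, and none of the 15 comparisons between pairs of groups passed. At 84 h the mean was -0.29 ± 0.29 in Flk1+ and -0.48 ± 0.08 in Flk1- cells, a difference of 0.19 (95% interval -0.05 to 0.43, limma adjusted p = 0.268). At 95 h the difference was 0.10 (interval -0.15 to 0.34, adjusted p = 0.932) and at 8 d -0.04 (interval -0.28 to 0.21, adjusted p = 1). The arrays of the sorts overlapped at each time. The spread of the Flk1+ group at 84 h came from arrays 2 and 4, which read -0.10 and 0.01, against -0.54 on both others, and without the 3 arrays that stood apart the 84 h difference was -0.04 (adjusted p = 0.895).

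The probes of Wnt4 agreed poorly with each other. Over the 24 arrays they correlated at 0.242, and at 95 h minus 84 h in Flk1+ cells they had opposite signs, 0.27 for probe 1184 (adjusted p = 0.0602) and -0.31 for probe 9607 (adjusted p = 0.125), neither of which passed. Between sorts both probes gave small differences at each time, from -0.05 to 0.14 for probe 1184 and from -0.03 to 0.24 for probe 9607. After quantile normalization Wnt4 was called lower in Flk1+ cells at 8 d than at 95 h (-0.33, adjusted p = 0.0201) and than at 84 h (-0.37, adjusted p = 0.00731), against -0.08 and -0.10 in the values used here.

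**Figure D2:**
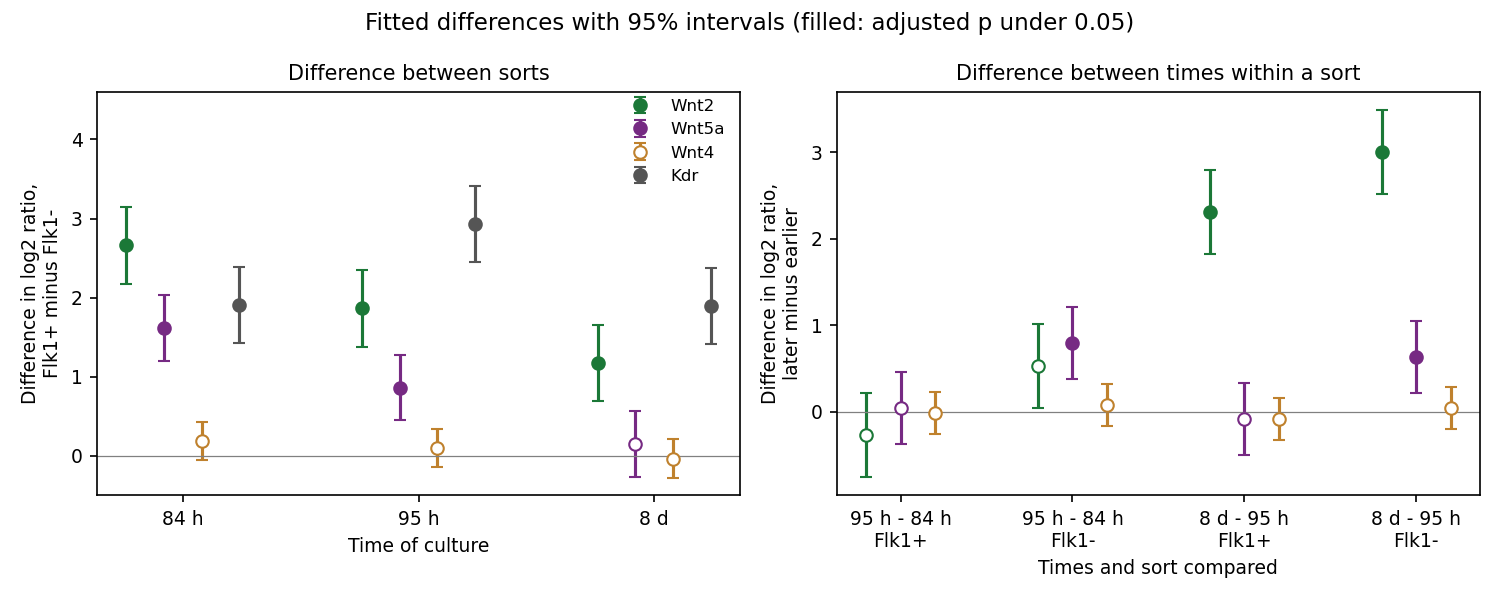
Fitted differences in log2 ratio with 95% intervals, between sorts (left, Flk1+ minus Flk1-, with Kdr for comparison) and between consecutive times within a sort (right, later minus earlier). Filled points had an adjusted p under 0.05. The sort differences of Wnt2 run 2.66, 1.86 and 1.17 and those of Wnt5a 1.62, 0.86 and 0.15, while Wnt4 stays within 0.19 of 0.

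The sort difference of both Wnt2 and Wnt5a was smaller at 8 d than at 84 h. For Wnt2 neither consecutive change passed, at -0.80 from 84 h to 95 h (limma adjusted p = 0.296, with 0.00573% of all features called) and -0.69 from 95 h to 8 d (adjusted p = 0.646). For Wnt5a these changes were -0.76 (adjusted p = 0.278) and -0.71 (adjusted p = 0.475). The change across the whole interval, tested after seeing the data, was -1.49 for Wnt2 (SE 0.33, 95% interval -2.17 to -0.80, adjusted p = 0.0133) and -1.47 for Wnt5a (SE 0.28, interval -2.06 to -0.88, adjusted p = 0.00478). In that comparison 3.18% of all features were called, 0.854% as lower. At the same threshold both changes kept their sign and passed in each of the 31 other fits, with adjusted p up to 0.0413 for Wnt2 and 0.0305 for Wnt5a. At a threshold of 0.01 the Wnt5a change passed in the fit reported here and the Wnt2 change did not. Wnt4 changed by -0.22 (adjusted p = 0.464). Kdr changed by -0.01 (95% interval -0.70 to 0.67) over all arrays. Without the 3 outlying arrays, however, Kdr differed between sorts by 2.49 at 84 h (adjusted p = 5.49e-09), against 1.91 with them, and by 1.89 at 8 d. As the Flk1+ and Flk1- values enter more than 1 of these comparisons, the comparisons are not independent of each other.

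Ordered by their means, the Wnt2 levels ran from Flk1+ at 8 d through Flk1- at 8 d, Flk1+ at 84 h, Flk1+ at 95 h and Flk1- at 95 h down to Flk1- at 84 h. In this order 2 pairs of neighbours were not called: Flk1+ at 84 h and 95 h, whose arrays did not overlap, and Flk1- at 95 h and 84 h, whose arrays did. Flk1- cells at 8 d exceeded Flk1+ cells at 84 h by 0.87 (limma adjusted p = 0.00647). Of the 15 pairs of groups 13 were called for Wnt2. In the 6 pairs that differ in both sort and time, the share of all features called was 24.9%, 37.2%, 7.47%, 18.2%, 19.3% and 20.5%. For Wnt5a 9 of 15 were called, and the Flk1+ groups of all 3 times and the Flk1- group of 8 d formed a set at the top with no called neighbours, above Flk1- at 95 h and then Flk1- at 84 h.

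Over the 24 arrays Wnt2 and Wnt5a correlated at 0.733, and at 0.708 without the 3 arrays that stood apart. Within groups, after taking off each group's mean, the correlation was -0.203, so the shared pattern lay in the group means. Wnt4 correlated with Wnt2 at 0.269 and with Wnt5a at 0.248.

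Markers of other cell types also had calls between sorts. Of all features 13.5% were called at 84 h, 2.03% at 95 h and 0.373% at 8 d. In sorted populations, fewer cells of a type and less RNA per cell cannot be told apart. Of 7 measured pluripotency genes, 5 were lower in Flk1+ than in Flk1- cells at 84 h and none was higher. Their average ran from 0.70 to 1.39 on the Flk1+ arrays and from 2.08 to 2.25 on the Flk1- arrays. The largest of these differences were those of Sox2 (-3.56) and Dppa3 (-1.96). At 95 h 3 of the 7 were lower, with averages of 0.50 to 0.84 on Flk1+ and 1.50 to 1.87 on Flk1- arrays. At 8 d limma called none, with 2 at an unadjusted p under 0.05, and the averages still did not overlap, at -0.03 to 0.09 on Flk1+ and 0.31 to 0.62 on Flk1- arrays. Of 5 endoderm genes 2 were lower and 2 higher in Flk1+ cells at 84 h, 2 were lower at 95 h and 3 at 8 d, Foxa2 at each time (-1.95, -2.39 and -1.67). Of 8 endothelial genes 1 was higher in Flk1+ cells at 84 h, Kdr itself, and 3 were higher at 8 d, namely Kdr, Cdh5 (1.84) and Eng (1.39). At 95 h Kdr was higher and Flt1, another VEGF receptor, lower (-0.66). Of 5 cardiac genes Nkx2-5 was higher in Flk1+ cells at 84 h (0.31) and Myl7 at 95 h (1.44), and none was called at 8 d, with 3 at an unadjusted p under 0.05. Of 6 blood genes limma called none at any time, with 0, 0 and 1 at an unadjusted p under 0.05 at 84 h, 95 h and 8 d. Of 4 neural genes it called none either, with 2, 0 and 0. The part of these markers in the ligand differences was not tested.

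Between 95 h and 8 d, when Wnt2 rose, genes of smooth muscle and mesenchyme rose as well. Of 10 measured, 6 were higher and none lower at 8 d in Flk1+ cells, and 5 were higher and 1 lower in Flk1- cells. Their average ran from -0.39 to -0.23 at 8 d and from -2.03 to -1.81 at 95 h on the Flk1+ arrays, and from -0.51 to -0.28 at 8 d and from -2.00 to -1.86 at 95 h on the Flk1- arrays. Postn, a matrix protein of mesenchyme, rose by 5.87 in Flk1+ and 5.54 in Flk1- cells, and Pdgfrb, a receptor of pericytes and fibroblasts, by 2.49 and 2.76. These genes and others named below for changes over time were chosen after their values were seen. Between sorts at 84 h Pdgfrb was higher (0.93) and Cnn1, a smooth muscle gene, lower (-0.45) in Flk1+ cells, and at 95 h Cnn1 was lower (-0.57). Between sorts at 8 d none of the 10 was called, and none reached an unadjusted p under 0.05 in limma. Other lists also had calls over the same interval. Of all features 22.1% were called in Flk1+ cells and 17.7% in Flk1- cells, so 1 call among 4 or 5 genes is close to that share. Of 7 pluripotency genes 3 were lower at 8 d than at 95 h in Flk1+ cells and 6 in Flk1- cells, and none was higher. Their average ran from -0.03 to 0.09 at 8 d and from 0.50 to 0.84 at 95 h on the Flk1+ arrays, and from 0.31 to 0.62 at 8 d and from 1.50 to 1.87 at 95 h on the Flk1- arrays. Of 6 blood genes 3 were higher in each sort and none lower. Of 8 endothelial genes 3 were higher and none lower in Flk1+ cells, and 2 were higher and 1 lower in Flk1- cells. Of 5 endoderm genes 2 were higher and 1 lower in each sort. Of 5 cardiac genes 1 was higher in Flk1+ and 2 in Flk1- cells, and of 4 neural genes 1 in each sort, with none lower in either list. The part of any of these lists in the rise of Wnt2 was not tested.

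Around the 3 ligands, 78 of 144 further genes of the Wnt pathway were measured. Of these 78, limma called 7 as higher and 7 as lower in Flk1+ than in Flk1- cells at 84 h, which is 17.9% against 13.5% of all features. At 95 h 3 were higher and 2 lower, 6.41% against 2.03%. At 8 d none was called and 10 had an unadjusted p under 0.05. Their median difference was 0.06 at 84 h, 0.05 at 95 h and -0.02 at 8 d, against medians of 0.00, 0.00 and 0.01 over all features. With the array number as a block the counts were 24, 10 and 2. The block also called more of all features at each time than the fit without it. These counts therefore cannot be read against the shares of all features given above. Counts over all features with the block are given in the closing section on processing. At 84 h the samples share only a number, so the count of 24 rests on a pairing not seen there. Fitted from the arrays of 1 time alone, 2 of the 14 genes called at 84 h passed, Nkd1 (adjusted p = 0.0335) and Msx2 (adjusted p = 0.00574), and of the 5 called at 95 h Fst alone (adjusted p = 0.000886).

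None of the other 4 measured Wnt ligands was called between the sorts. Wnt5b, a close relative of Wnt5a, read 0.13 in Flk1+ cells and 0.13 in Flk1- cells at 84 h, 0.90 in Flk1+ cells and 0.39 in Flk1- cells at 95 h and 0.11 in Flk1+ cells and -0.16 in Flk1- cells at 8 d. Its largest difference between sorts, 0.52 at 95 h, did not pass (limma adjusted p = 0.306). Wnt6, Wnt7a and Wnt9b differed between sorts by -0.08 to 0.29 across the 3 times. At an unadjusted p under 0.05 there was 1 of the 4 ligands at 84 h, 1 at 95 h and none at 8 d. In Flk1+ cells Wnt5b fell by 0.79 at 8 d against 95 h (adjusted p = 0.00766, with 22.1% of all features called). The further Wnt ligands of the list were not measured by a probe with 1 gene.

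Of 5 genes for lipidation, release and spreading of Wnt proteins, 1 was called between sorts, at 95 h, when 2.03% of all features were called. This was Gpc4, a cell surface glypican, which was lower in Flk1+ cells at 95 h (-0.61, limma adjusted p = 0.0166), though not after quantile normalization (adjusted p = 0.139) or with array weights (adjusted p = 0.231). Porcn, the enzyme that lipidates Wnt proteins, differed between sorts by 0.11, -0.22 and -0.06 at 84 h, 95 h and 8 d, with no call. Wls, which carries Wnt proteins to the cell surface, stood 0.67 higher in Flk1+ cells at 95 h without passing (adjusted p = 0.0922). In Flk1- cells Wls rose by 1.07 between 95 h and 8 d (adjusted p = 0.000486), to 0.61 at 8 d, against -0.46 at 95 h. Of all features 17.7% were called in that comparison.

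Among 8 measured Frizzled, Lrp and R-spondin pathway genes, the R-spondin receptor Lgr4 was the only one called between sorts, at -0.73 at 84 h (limma adjusted p = 0.0147). With the 3 outlying arrays left out it did not pass (-0.38, adjusted p = 0.0839). At 84 h 13.5% of all features were called, so 1 of 8 genes was no more than that share. The Frizzled genes with a probe were Fzd3, Fzd5 and Fzd7. None of these 8 genes was called between sorts at 95 h or 8 d, where 0 and 1 of them had an unadjusted p under 0.05.

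Of 18 genes of alternative Wnt receptors and planar polarity, 2 were called between sorts, both lower in Flk1+ cells at 84 h. They were Rhoa, a small GTPase of the cytoskeleton (-0.50, limma adjusted p = 0.0251), and Nfatc4, a calcium-regulated transcription factor (-0.47, adjusted p = 0.00401), and Rhoa did not pass without the 3 arrays (adjusted p = 0.28). At 84 h 13.5% of all features were called, so 2 of 18 genes was no more than that share. Ror2 and Ryk, receptors of Wnt5a, were not called between sorts but were higher at 8 d than at 95 h in both sorts. Ror2 rose by 1.35 in Flk1+ (adjusted p = 8.34e-06) and 0.81 in Flk1- cells (adjusted p = 0.00245), and Ryk by 0.52 (adjusted p = 0.0111) and 0.85 (adjusted p = 0.000182). Ror1 rose by 1.40 in Flk1+ cells (adjusted p = 0.00235). In Flk1+ cells Ror1 and Ror2 were thus called across an interval in which Wnt5a changed by -0.08 without passing. Of all features 22.1% were called in that comparison.

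Of 5 secreted inhibitors 2 were higher in Flk1+ cells at 84 h, when 5.3% of all features were called as higher. Dkk1, which blocks Lrp coreceptors, differed by 0.77 (limma adjusted p = 0.00796) and Frzb, a soluble Frizzled-related protein, by 1.00 (adjusted p = 0.00146). Dkk1 missed the threshold after quantile normalization (adjusted p = 0.0664). Between 95 h and 8 d Dkk2 rose in both sorts, as Wnt2 did, by 4.11 in Flk1+ (adjusted p = 9.84e-11) and 2.99 in Flk1- cells (adjusted p = 1.2e-08). Dkk3 rose by 1.08 and 1.11. Wif1, a further inhibitor of the list, changed by 0.90 in Flk1+ cells (adjusted p = 0.00305). Dkk1 and Frzb went the other way there, with changes of -1.15 (adjusted p = 5.27e-05) and -0.58 (adjusted p = 0.0285). The changes of Wif1 (0.13), Dkk1 (-0.25) and Frzb (0.13) in Flk1- cells did not pass. Over this interval 22.1% of all features were called in Flk1+ cells and 17.7% in Flk1- cells.

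In the intracellular beta-catenin pathway 3 of 24 genes were called between sorts, all at 84 h. This is no larger a share than the 13.5% of all features called at 84 h. Dvl2, a scaffold below the receptors, was higher in Flk1+ cells (0.50), and the corepressors Tle1 (-0.59) and Tle4 (-0.56) were lower. None of the 3 passed without the 3 arrays that stood apart (limma adjusted p = 0.108, 0.822 and 0.416). Lef1, a nuclear partner of beta-catenin, stood 0.89 higher in Flk1+ cells at 95 h without passing (adjusted p = 0.0829). In Flk1+ cells Lef1 fell by 1.52 at 8 d against 95 h (adjusted p = 0.000154, with 22.1% of all features called).

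Among the 78 other genes of the pathway, target genes held the largest differences between sorts. Of 14 measured, 4 were higher and 2 lower in Flk1+ cells at 84 h, and 3 were higher and 1 lower at 95 h. Of all features 13.5% were called at 84 h and 2.03% at 95 h. Msx2, a homeobox gene, was higher at 84 h (1.35, limma adjusted p = 3.87e-05) and at 95 h (0.71, adjusted p = 0.0387, and 0.0963 with array weights). Nkd1, a feedback inhibitor, was higher by 1.06 at 84 h (adjusted p = 0.00245). Ccnd2, which encodes cyclin D2, was higher by 0.63 at 84 h (adjusted p = 0.00787) and by 0.82 at 95 h (adjusted p = 0.00181). Fst, which encodes the activin antagonist follistatin, was lower by 1.70 on the log2 scale at 84 h (-1.70, adjusted p = 0.000873) and by 1.35 at 95 h (-1.35, adjusted p = 0.0147). Irx3 was higher at 84 h (0.68), Msx1 was higher at 95 h (0.68) and Id2 was lower at 84 h (-0.93), of which Id2 did not pass without the 3 arrays (adjusted p = 0.416). Irx3 and the 84 h value of Ccnd2 were named after their values were seen. Axin2, Sp5 and T, much-used readouts of beta-catenin, were not analysed here. Ccnd2 was the only 1 of the 78 genes called for a change of its sort difference between consecutive times, by -1.45 from 95 h to 8 d (limma adjusted p = 0.000658, with 0.533% of all features called). At an unadjusted p under 0.05 there were 9 of the 78 from 84 h to 95 h and 16 from 95 h to 8 d, among them Msx2 (-1.08, adjusted p = 0.0606).

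**Figure D3:**
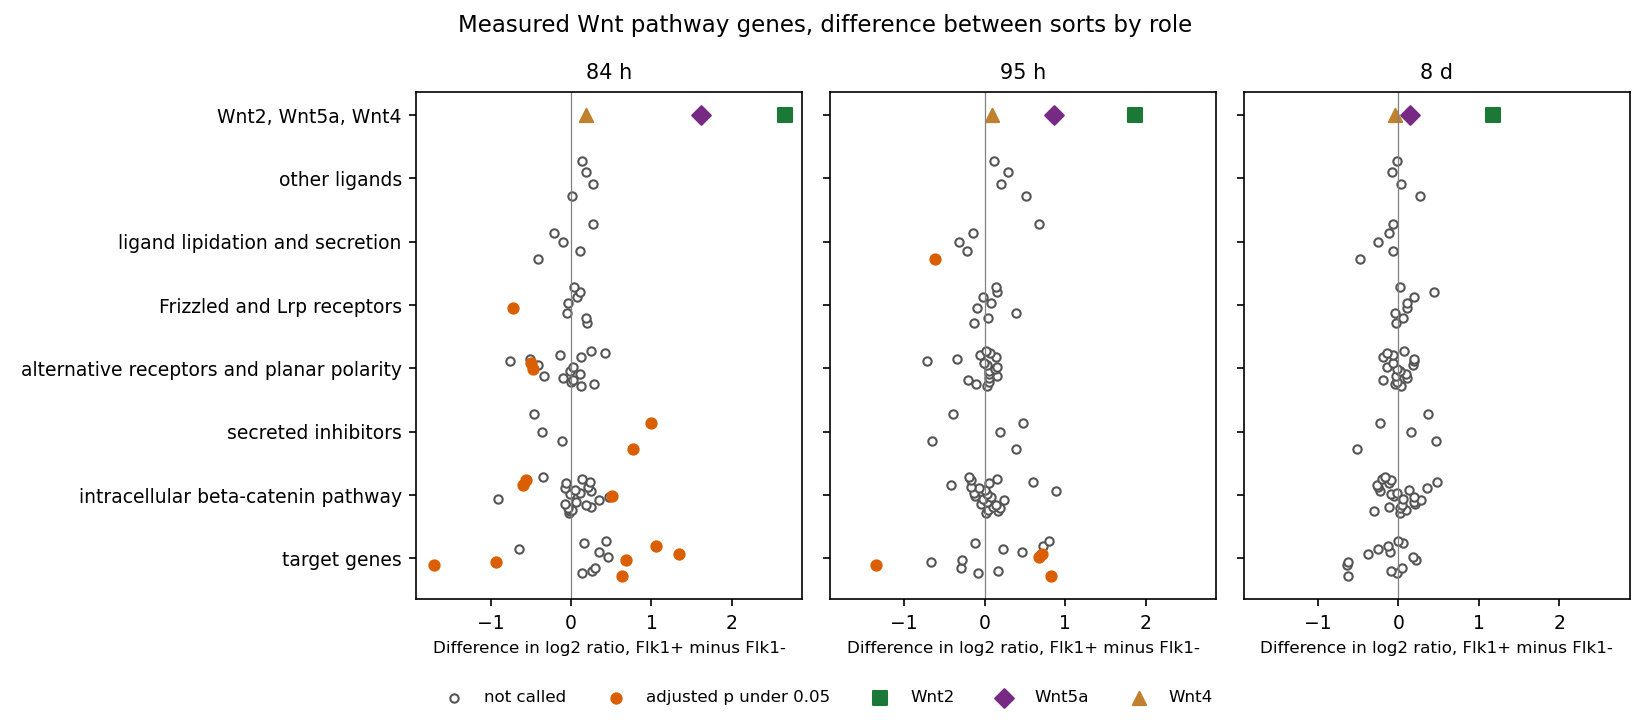
Difference in log2 ratio, Flk1+ minus Flk1-, of the 78 other measured Wnt pathway genes by role at each time, with the 3 ligands on top. Each circle is a gene, and filled circles had an adjusted p under 0.05. Wnt2 lies to the right of every other gene shown at all 3 times, while 14, 5 and 0 of the other genes were called.

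The genes most like each ligand were those with the highest and lowest correlation over the 24 arrays, given as a description, since all arrays share the reference and the 6 groups. Tnfrsf1a, a receptor of tumour necrosis factor, and Pcdh18, a protocadherin, were most like Wnt2 (0.959 each), followed by Tmem119 (0.950), Oaf (0.935) and Nrp1 (0.932), a coreceptor of VEGF. Tnfrsf1a averaged -0.63 in Flk1+ cells and -2.07 in Flk1- cells at 84 h, and 0.43 in Flk1+ cells and -0.17 in Flk1- cells at 8 d. Least like Wnt2 were Slc7a7 (-0.932), Psmb8 (-0.929) and Trh (-0.925). Wnt5a was most like Fn1, the gene of fibronectin (0.879), then Hmga2 (0.869), Plekho1 (0.850), Prdm6 (0.833) and Chst2 (0.833), and least like Rpl39l (-0.894), Nefl (-0.893) and Cldn3 (-0.880). Fn1 averaged 0.19 in Flk1+ cells and -1.17 in Flk1- cells at 84 h, and 0.48 in Flk1+ cells and 0.54 in Flk1- cells at 8 d. Without the 3 arrays that stood apart these correlations were 0.94 to 0.96 for the 5 genes most like Wnt2 and 0.82 to 0.88 for those most like Wnt5a. For Wnt4 the highest were Notch3 (0.854), 1500011B03Rik (0.831), Arl16 (0.807), Map11 (0.801) and Timm13 (0.799), and the lowest Anp32a (-0.859), Ect2 (-0.836) and Rnf6 (-0.831). Those of Wnt4 were weaker without the 3 arrays, at 0.64 to 0.77 for the highest 5.

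**Figure D4:**
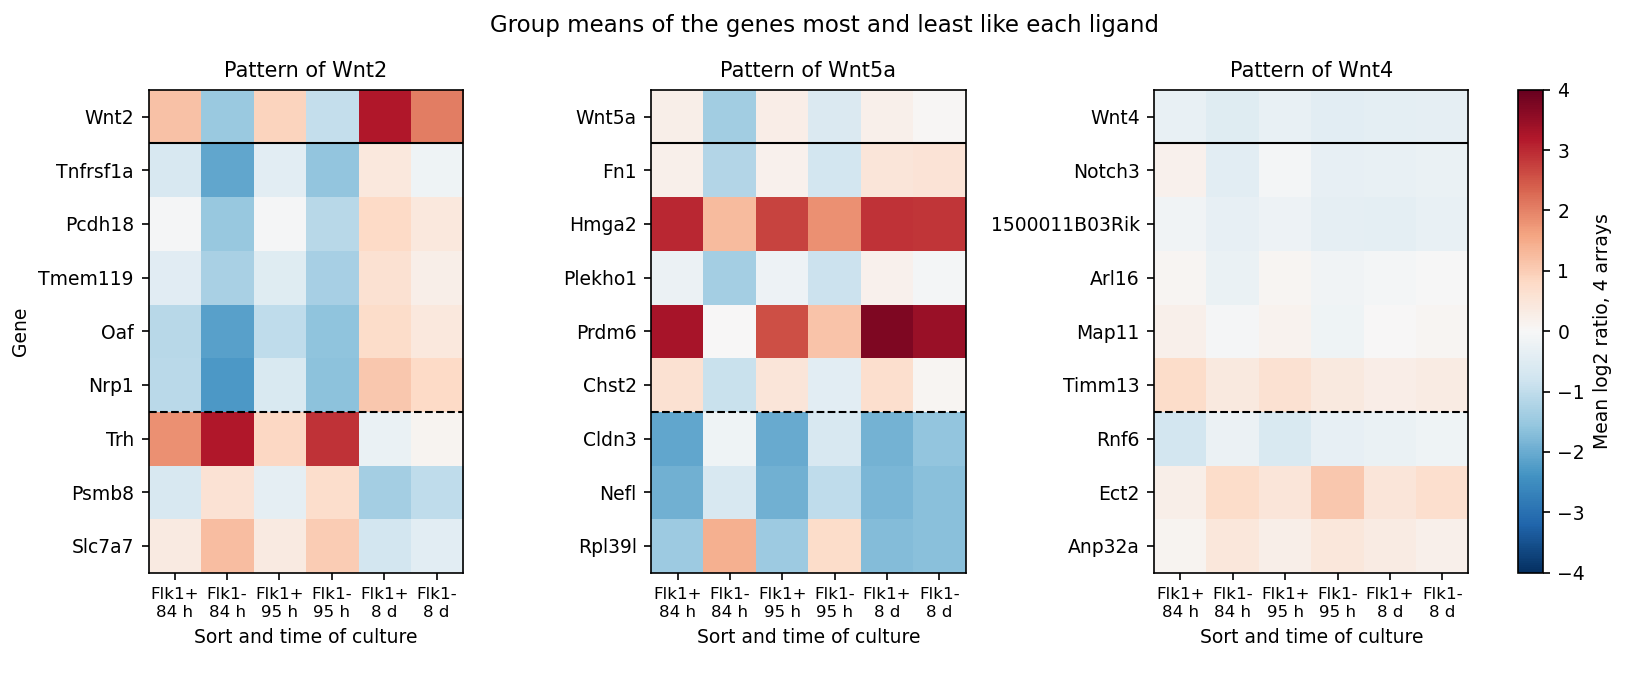
Mean log2 ratio of 4 arrays in each group for each ligand (top line), the 5 genes with the highest correlation to it over 24 arrays and, below the dashed line, the 3 with the lowest. Flk1+ stands left of Flk1- at each time, and red is above and blue below the array median. The genes like Wnt2 gain in both sorts by 8 d, and those like Wnt5a have their lowest mean in Flk1- cells at 84 h. Those around Wnt4 vary less between groups than those around Wnt2 and Wnt5a, although the means of Ect2 run from 0.25 to 1.06.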

How the data were processed

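Two-colour Agilent arrays of 24 samples were analysed from the deposited series table, which holds per probe and array a value that was read as a log2 ratio of sample (Cy5) over pup reference (Cy3), as the authors deposited it. The log base, direction, feature extraction, background correction and normalization are not given in the sources used here. All arrays had a mean of 0 as deposited, as seen from the values, and values ran from -6.42 to 5.33. Per the labels, every array had the same dye orientation, so a dye effect on a probe drops out of differences between groups. The number of arrays, 4 a group, limits the precision.

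The platform annotation listed 1 gene for 11813 of 20280 probes, several for 559 and none for 7908. The RefSeq gene table held the Entrez identifier of 11782, which changed 0 symbols. Each array's median was set to 0 and probes of 1 gene were averaged, leaving 17440 features, of which 8973 were named genes. Their 6 groups entered 1 fit of R 4.3.3 and limma 3.58.1 (lmFit and eBayes) with a mean per group, no covariate, and 18 residual and 3.41 prior degrees of freedom. Adjustment was by Benjamini-Hochberg across the 17440 features. The fit was tested on simulated data. Tables were read with data.table (version 1.17.8), and figures were drawn with Python and matplotlib 3.10.9.

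Comparisons were Flk1+ minus Flk1- at each time, consecutive times within a sort, and the change of the sort difference between consecutive times. The changes from 84 h to 8 d, of the sort difference and within each sort, were added after seeing the data. The ligands and the gene lists were chosen with earlier results of these data known, as were the 3 arrays that stand apart. Besides the ligands and Kdr, the text names up to 4 called genes of each Wnt list and up to 2 of each cell type list per sort comparison, uncalled list genes with their values, and the 5 most and 3 least correlated genes per ligand.

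Samples of a sort and time carry numbers 1 to 4 in the labels. Whether equal numbers pair Flk1+ and Flk1- samples was checked by correlating their deviations from the group means. At 8 d the 4 correlations ran from 0.15 to 0.44 and at 95 h from 0.11 to 0.42, all above the threshold of 0.1. The numbers were therefore treated as pairing the samples there, although the labels do not say what a number stands for. For array 4 the correlation barely exceeded that with another number, at 0.146 against 0.120 at 8 d and 0.107 against 0.064 at 95 h. The main fit did not use the pairing. At 84 h they ran from -0.13 to 0.53, and the samples share only a number. Alternatives were no centring, quantile normalization, probes kept separate, only the arrays compared, array weights, leaving out the 3 arrays or each array in turn, the replicate block within time and, for counts of calls, a stricter threshold of 0.01.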

Additional observations from a re-analysis of the deposited data

Results flagged for a closer look

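In 4 of the 36 groups of 4 arrays examined for the ligands, their separate probes and Kdr, 1 array lay far from the other 3. Chance gives about 1 such group in 20. For Wnt2 in Flk1+ cells at 84 h array 4 read 1.50, against 1.03 to 1.08 on the others, and the difference between sorts was called without each array in turn. For Wnt5a in Flk1- cells at 8 d array 3 read 0.45, against -0.13 to -0.06 on the others. Without it the step of Wnt5a in Flk1- cells from 95 h to 8 d was 0.50 and did not pass (limma adjusted p = 0.12). For Kdr, array 1 of Flk1- cells at 95 h read -1.30, against -1.02 to -1.00, and array 4 of Flk1+ cells at 8 d read 1.89, against 1.46 to 1.51.

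The difference between Flk1+ and Flk1- cells changed from 84 h to 8 d for 2 of the 3 ligands, in a comparison where 3.18% of all features were called, 0.854% as lower. The change was -1.49 for Wnt2 (SE 0.33, limma adjusted p = 0.0133) and -1.47 for Wnt5a (SE 0.28, adjusted p = 0.00478). Both were tested as an interaction chosen after seeing the data. Its size for Wnt2 went with gains of 2.04 in Flk1+ and 3.53 in Flk1- cells from 84 h to 8 d, and for Wnt5a with -0.04 in Flk1+ and 1.43 in Flk1- cells.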

How the results depend on the processing

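All sort and time differences of the ligands kept their sign where called. Calls of Wnt2 that did not pass were those at 95 h with array weights (1.64, limma adjusted p = 0.0796) and at 8 d from the compared arrays alone (1.17). For Wnt5a they were the 95 h sort difference after quantile normalization (0.806), from the compared arrays (0.860) and with weights (0.941), the step to 95 h in Flk1- cells without centring (0.785), after quantile normalization (0.807) and from the compared arrays (0.799), and the step to 8 d after quantile normalization (0.613). Wnt4 in Flk1+ cells passed after quantile normalization at 8 d against 95 h (-0.326) and 84 h (-0.372). Leaving out 1 array in turn gave 0.724 to 1.01 for Wnt5a at 95 h, 1.00 to 1.43 for Wnt2 at 8 d, 0.650 to 0.935 for the early and 0.494 to 0.779 for the late step of Wnt5a in Flk1- cells. The replicate block changed no call of a ligand.

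Counts over all features depended more on the fit. The replicate block also joins the 84 h samples, which share only a number, so its counts at 84 h carry that limit. At 84 h 2352 became 649 at a threshold of 0.01, 1304 after quantile normalization, 347 from the compared arrays, 3625 with weights, 1176 without the 3 arrays and 4386 with the replicate block. At 95 h 354 became 192 at 0.01, 135 from the compared arrays, 698 without the 3 arrays and 545 with the block. At 8 d 65 became 24 at 0.01, 218 after quantile normalization, 952 from the compared arrays, 2332 with weights, 172 without the 3 arrays and 139 with the block. For 95 h minus 84 h in Flk1+ cells 3451 became 811 at 0.01, 1625 after quantile normalization, 804 with weights, 951 without the 3 arrays and 0 in limma from the compared arrays, where 3020 had an unadjusted p under 0.05. In Flk1- cells 286 became 51 at 0.01, 70 from the compared arrays, 2156 with weights and 668 without the 3 arrays. For 8 d minus 95 h 3861 in Flk1+ cells became 2214 at 0.01, 6059 with weights and 5864 without the 3 arrays, and 3080 in Flk1- cells became 1775, 6692 and 5087. The change of the sort difference had 1 call to 95 h, against 0 after quantile normalization (2026 unadjusted), 0 from the compared arrays (1265 unadjusted), 46 with weights, 31 without the 3 arrays and 5 with the block. From 95 h to 8 d it had 93, against 26 at 0.01, 161 from the compared arrays, 288 with weights, 314 without the 3 arrays and 173 with the block. Leaving out 1 array gave 1017 to 4550 at 84 h, 31 to 102 at 8 d, 1637 to 5358 and 93 to 449 for the early steps, and 1 to 11 and 47 to 126 for the changes.

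For the 78 other Wnt genes 14 at 84 h became 8 at 0.01, 2 from the compared arrays and 24 with the block. At 95 h 5 became 1 at 0.01, 2 from the compared arrays, 12 without the 3 arrays and 10 with the block. At 8 d 0 became 1 without centring, after quantile normalization or with probes kept separate, 8 from the compared arrays, 18 with weights, 3 without the 3 arrays and 2 with the block. Leaving out 1 array gave 8 to 24, 3 to 11 and 0 to 1. Without centring 54.5% of the features called at 84 h were higher, against 39.3% with it, and without the 3 arrays 28.2%.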
